A study of Homo sapiens with 12 samples.

Results

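The genes described here encode proteins of the mitochondrial ribosome. They were taken as the protein-coding genes whose symbols begin with MRPL or MRPS and a digit, with pseudogenes left out. Of 60663 gene IDs in the deposited count table, 164 had such a symbol and 78 of these were protein-coding genes in GENCODE release 29, 49 named MRPL and 29 named MRPS. The rest were 79 pseudogenes and 7 noncoding or untyped entries.

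RNA was sequenced from RCC4, a human clear cell renal carcinoma line, as DNase-treated total RNA after depletion of ribosomal RNA. VHL-negative cells had lost VHL, the tumour suppressor that marks hypoxia-inducible factors for degradation, and VHL-positive cells were the same line with VHL put back. Both were kept in high-glucose medium with geneticin and were given either DMSO, the solvent control, or 5 µM JQ1, which binds the bromodomains of BET proteins and which the labels name as a MYC inhibitor. Each of the 4 groups had 3 libraries. The labels do not give the VHL construct, the number of clones, the length of treatment or whether the 3 libraries of a group came from separate cultures, so p-values measure the spread between these libraries, which may be technical.

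Libraries held 15452949 to 32502310 counts, and the members took 0.186% to 0.372% of them. The lowest depth and the lowest share both belonged to VHL-negative JQ1 replicate 2. Genes of the mitochondrial genome took 9.901% to 25.322% of counts, with both extremes in the VHL-negative DMSO group. VHL RNA was at 24.9 to 35.2 CPM (counts scaled to library sizes that were adjusted by TMM) in the 6 VHL-negative libraries and at 64.6 to 221 CPM in the 6 VHL-positive ones, in the direction of the labels. Its mean was 70.3 CPM under DMSO and 212 CPM under JQ1 in VHL-positive cells, beside 26.4 and 32.7 CPM in VHL-negative cells. The lines thus differed more in VHL RNA under JQ1 than under DMSO, and the part of this in the results was not tested. Of the renal line's 9 markers, PAX8 was at 199 to 655 CPM of total counts and CDH16 reached as low as 3.12, while the 3 hepatocyte markers stayed at 0.135 or below. Among leukocyte markers CSF1R reached 4.06 and ITGAM 1.87, with PTPRC and CD3E at 0.339 or below. Of 5 endothelial markers ESAM was at 2.24 to 10.7 and the others, PECAM1 among them, at 0.339 or below. ESAM, the one endothelial marker tested, rose with JQ1 in both lines, and of the 2 leukocyte markers tested CSF1R fell in VHL-negative and ITGAM in VHL-positive cells; their part in the results was not tested.

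Mitochondrial ribosomes translate the few mRNAs that mitochondrial DNA encodes, all of them for subunits of the oxidative phosphorylation complexes. Their RNA comes from the mitochondrial genome, and all of their proteins come from nuclear genes, are made in the cytosol and are imported. Some of these proteins have counterparts in bacterial ribosomes and others are found only in mitochondria. The names do not always give the place: MRPS30 and MRPS18A sit in the large subunit, and MRPS36 has since been described as a component of the 2-oxoglutarate dehydrogenase complex.

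By structure, 51 members belong to the large subunit and 26 to the small subunit, and MRPS36 was assigned to neither. The genes lie on 21 chromosomes. In 14 of them at least 20% of the exon length overlaps exons of other genes, and 36 have pseudogenes named for them, so reads of these may be shared. The sources used here do not say whether counting used strand; without strand, reads of overlapping genes on opposite strands cannot be told apart. The low-count filter kept 77 members. MRPL53 did not pass it, with 3 counts over all 12 libraries, and 45.2% of its exon length overlaps CCDC142 on the same strand.

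Promoter windows from RefSeq on GRCh38.p14, from 250 bases before to 50 bases after each gene's start, were found for 70 members, 11 of which had more than 1 window, the first being used. Both strands were searched for 5 letter patterns that known factors of growth and mitochondrial genes bind. The MYC-type E-box CACGTG was in 7 member windows, 10.0%, against 8.88% of 15305 windows of protein-coding genes. The NRF1 pattern of GCGCA, any base and GCGC was in 8, or 11.4% against 8.61%, and the ETS pattern CCGGAAGT in 11, or 15.7% against 6.31%. The YY1 pattern AAGATGGCG was in 13, or 18.6% against 2.8%, although only 3 of these 13 had a match before the start. TATAAA was in 3, or 4.29% against 9.59%. These are counts of letters, with no binding measured.

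Stretches before the RefSeq start of 5 members, cleared of annotated exons, are printed for the genes the results turn on or refer back to. MRPL3 fell most clearly with JQ1 in VHL-negative cells (chr3:131502984-131503221, minus strand). MRPS6 rose in both lines (chr21:34073328-34073522, plus strand). Its stretch lies before the RefSeq start but inside the gene as GENCODE places it, from chr21:34073224 on. MRPL22 (chr5:154940823-154941069, plus strand), MRPS18C (chr4:83455857-83455931, plus strand) and MRPS36 (chr5:69217510-69217759, plus strand) carry the E-box. All are GRCh38.p14 and run 5′ to 3′ on the gene's strand; capitals mark the ETS pattern in MRPL3, the E-box in MRPL22, MRPS18C and MRPS36, and in MRPS36 also TATAAA read on the other strand. No pattern of the 5 is in the stretch of MRPS6.
MRPL3: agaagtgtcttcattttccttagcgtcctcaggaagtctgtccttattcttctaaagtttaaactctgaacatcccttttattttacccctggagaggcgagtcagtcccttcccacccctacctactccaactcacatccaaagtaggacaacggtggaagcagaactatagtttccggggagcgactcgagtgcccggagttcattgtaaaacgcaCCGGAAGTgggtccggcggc
MRPS6: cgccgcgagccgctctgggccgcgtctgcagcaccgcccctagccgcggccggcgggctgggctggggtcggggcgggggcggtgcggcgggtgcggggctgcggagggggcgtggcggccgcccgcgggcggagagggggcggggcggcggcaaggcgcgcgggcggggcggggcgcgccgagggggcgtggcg
MRPL22: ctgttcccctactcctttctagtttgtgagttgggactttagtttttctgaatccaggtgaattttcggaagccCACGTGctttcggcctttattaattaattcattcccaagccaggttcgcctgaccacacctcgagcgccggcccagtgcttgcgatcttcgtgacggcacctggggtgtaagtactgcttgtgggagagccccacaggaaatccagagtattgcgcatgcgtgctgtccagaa
MRPS18C: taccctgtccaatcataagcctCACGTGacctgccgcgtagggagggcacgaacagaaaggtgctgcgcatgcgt
MRPS36: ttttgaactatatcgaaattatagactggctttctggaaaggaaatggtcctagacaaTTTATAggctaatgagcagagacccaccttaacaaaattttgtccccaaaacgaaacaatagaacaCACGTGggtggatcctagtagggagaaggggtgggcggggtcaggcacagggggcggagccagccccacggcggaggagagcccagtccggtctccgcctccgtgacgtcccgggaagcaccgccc

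Levels of different genes were compared per kilobase of exon. Averaged over the 12 libraries, MRPL14 was highest at 89.2 CPM per kilobase, followed by MRPS34 at 68.1 and MRPL18 at 57.9. The lowest were MRPL53 at 0.00727, MRPL23 at 0.437 and MRPS24 at 0.501. On the same strand, 45.2% of MRPL53's and 23.2% of MRPS24's exon length overlaps other genes. The part of this overlap in their levels was not tested. MRPL14 led in VHL-negative cells, with 120 CPM per kilobase under DMSO and 90.7 under JQ1. Under DMSO in VHL-positive cells MRPS34, at 83.7, stood above MRPL14, at 68.5, and the VHL-positive JQ1 group had MRPL14 at 77.4 and MRPS34 at 71.0. Across all members the order of levels was much the same in every group, with Spearman's rho between groups of 0.909 to 0.977, a description over genes that share libraries and lengths.

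The first question was how JQ1 changed these genes in cells without VHL. There, 44 of the 77 tested members fell and 1 rose, by edgeR's quasi-likelihood test at a Benjamini-Hochberg adjusted p under 0.05 over all 20714 genes tested. The falls were 57.1% of members, beside 17.5% of all genes tested and 22.6% of protein-coding genes. The rise was 1.3% of members, beside 14.6% of all genes. The median log2 fold change of the members was -0.48, beside 0.03 for all genes and -0.07 for protein-coding genes. Falls ranged from 1.32-fold to 4.14-fold, 8 of them being at least 2-fold, so most were modest. In 39 members every JQ1 library was below every DMSO library, and in 4 every one was above, beside 22.3% and 20.7% of all genes. In bulk RNA, a lower level in every cell and fewer cells that express a gene cannot be told apart.

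**Figure D1:**
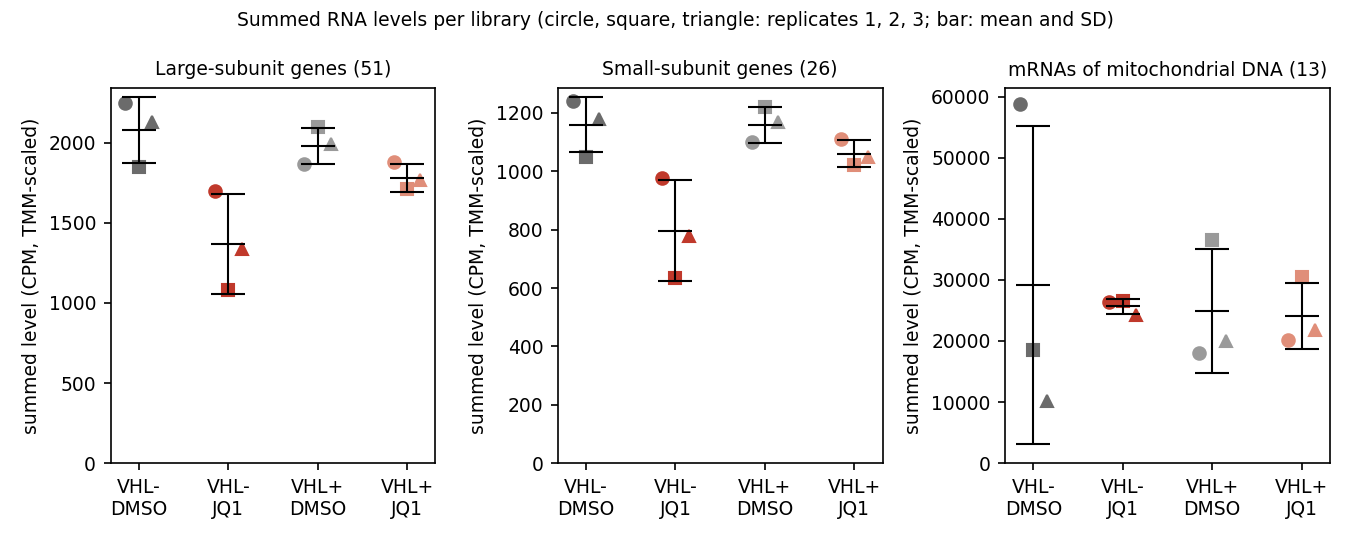
Summed CPM (TMM-scaled, vertical axis) in each library (points) and its mean by group (lines) for large-subunit members, small-subunit members and mRNAs of mitochondrial DNA. Both subunits are lowest in VHL-negative JQ1 cells, whose 3 large-subunit sums lie between 1080 and 1700, while the mRNAs of mitochondrial DNA spread from 10100 to 58700 within the VHL-negative DMSO group alone.

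Summed over the 51 large-subunit members, VHL-negative cells had 2250, 1850 and 2130 CPM under DMSO and 1700, 1080 and 1340 CPM under JQ1. The 26 small-subunit members summed to 1240, 1050 and 1180 CPM under DMSO and to 977, 633 and 779 CPM under JQ1. The sums of both subunits therefore did not overlap between treatments. Of the large subunit's 50 tested members 31 fell, with a median log2 fold change of -0.51, and of the small subunit's 26 members 13 fell and 1 rose, with a median of -0.42. Among members with a bacterial counterpart 28 of 45 fell (62.2%), and among those without one 16 of 31 (51.6%), beside 17.5% of all genes.

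MRPL3 (ENSG00000114686, chr3:131462212-131502983, GRCh38), a large-subunit protein with a bacterial counterpart, measured 99.4, 81.3 and 102 CPM under DMSO and 43.1, 26.5 and 31.0 CPM under JQ1. Every JQ1 library was below every DMSO library. Its log2 fold change was -1.49 ± 0.17 (SE, adjusted p = 9.15e-06), the smallest p of any member in this comparison. MRPS15, of the small subunit, went from 88.4, 50.1 and 55.0 CPM to 26.4, 20.6 and 22.5 CPM, again with no overlap, for a log2 fold change of -1.47 ± 0.198 (adjusted p = 4.25e-05). MRPL24, which lies near the exit of the large subunit's tunnel, went from 48.5, 30.2 and 37.3 CPM to 17.1, 14.5 and 14.6 CPM. Its groups were also apart, at -1.32 ± 0.171 (adjusted p = 2.97e-05).

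MRPL11, at the base of the stalk that receives translation factors, stood at 55.6, 45.1 and 53.9 CPM under DMSO and at 28.1, 13.9 and 20.2 CPM under JQ1, a change of -1.3 (adjusted p = 7.98e-05). MRPL12, the stalk protein itself, went from 24.1, 19.5 and 25.3 CPM to 18.9, 12.6 and 17.4 CPM. That change was smaller, -0.49 ± 0.155 (adjusted p = 0.0246), and 68.2% of the gene's exon length overlaps a neighbouring annotation. MRPL32, which matures by cleavage after import, fell from 57.4, 50.9 and 63.1 CPM to 33.1, 26.7 and 30.8 CPM (-0.92 ± 0.131, adjusted p = 7.33e-05). MRPS30 fell from 53.8, 52.8 and 58.6 CPM to 35.7, 23.9 and 28.1 CPM (-0.91 ± 0.138, adjusted p = 0.000126). In both of these the JQ1 libraries lay wholly below the DMSO ones. MRPL19 and MRPL28 fell by 0.91 and 1.14 on the log2 scale (adjusted p = 0.000123 and 0.000193).

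The largest fold was that of MRPL23, a protein at the tunnel exit and a low member, with 1.85, 1.86 and 1.88 CPM under DMSO and 0.683, 0.238 and 0.35 CPM under JQ1. The change was -2.05 ± 0.402 (adjusted p = 0.00107), and it rests on few counts. MRPL14, MRPS34 and MRPL18, the highest members per kilobase, fell less than MRPL23. Of these, only MRPL14 fell less than the median change of all tested members, -0.48 on the log2 scale. MRPL14 went from 105, 106 and 134 CPM to 103, 72.3 and 86.0 CPM (-0.4, adjusted p = 0.0398), MRPS34 fell by 0.71 on the log2 scale (adjusted p = 0.0052) and MRPL18 by 0.61 (adjusted p = 0.00617). MRPL45, which holds the ribosome to the inner membrane, fell by 0.74 (adjusted p = 0.0118), and MRPL58, a peptidyl-tRNA hydrolase that frees stalled ribosomes, by 0.64 (adjusted p = 0.0293).

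MRPS6 (ENSG00000243927, chr21:34073224-34143034), a small-subunit protein with a bacterial counterpart, was the one member that rose. It measured 42.4, 38.1 and 31.1 CPM under DMSO and 62.3, 52.0 and 54.0 CPM under JQ1, without overlap, a change of 0.59 ± 0.129 (adjusted p = 0.00236). The gene shares 9.6% of its exon length, on the same strand, with SLC5A3 and an unnamed annotation together. SLC5A3, an inositol transporter gene, rose from a mean of 161 to 205 CPM (log2 fold change 0.35, adjusted p = 0.039). How far shared reads carry the rise of MRPS6 was not tested.

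The 3 JQ1 libraries of VHL-negative cells were spread in a common way. Replicate 1 was the highest of the group in 73 of the 77 members and replicate 2 the lowest in 73. The members' median coefficient of variation was 22.9% there beside 6.48% to 11.5% in the other groups. Over all genes tested it was also largest in this group, at 19.4% beside 11.6% to 17.9%. Without replicate 2 the members called numbered 28, of which 25 fell and 3 rose, and 24.1% of all genes passed. Without replicate 3 they also numbered 28, of which 27 fell, and 21.6% of all genes passed. With replicate 3 of both JQ1 groups left out they numbered 20, of which 19 fell, and 18.3% of all genes passed. In that last fit MRPL18 was not called (adjusted p = 0.0552). With all libraries 32.1% of all genes passed, so calls dropped beyond the members too. The calls of MRPL12, MRPL14, MRPL45 and MRPL58 were lost without replicate 2 and without replicate 3. Their adjusted p over all alternatives reached 0.127, 0.185, 0.0867 and 0.14. Their calls were also lost without VHL-negative DMSO replicate 1 (MRPL12, MRPL45, MRPL58) or 3 (MRPL12, MRPL14), and that of MRPL14 without VHL-positive DMSO replicate 3 or any 1 VHL-positive JQ1 library.

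Falls with JQ1 in VHL-negative cells were also counted among members with little annotated exon overlap. Of the 44 members with under 5% of exon length shared with other genes 28 fell (63.6%). Of the 24 of these with no named pseudogene 15 fell (62.5%). These shares stand beside 57.1% of all tested members and 17.5% of all genes. Reads were not recounted, so the part of overlap in the counts was not tested. In the authors' deposited table of the same contrast 46 members fell and 1 rose among 77, where 26.9% of all genes passed in either direction.

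**Figure D2:**
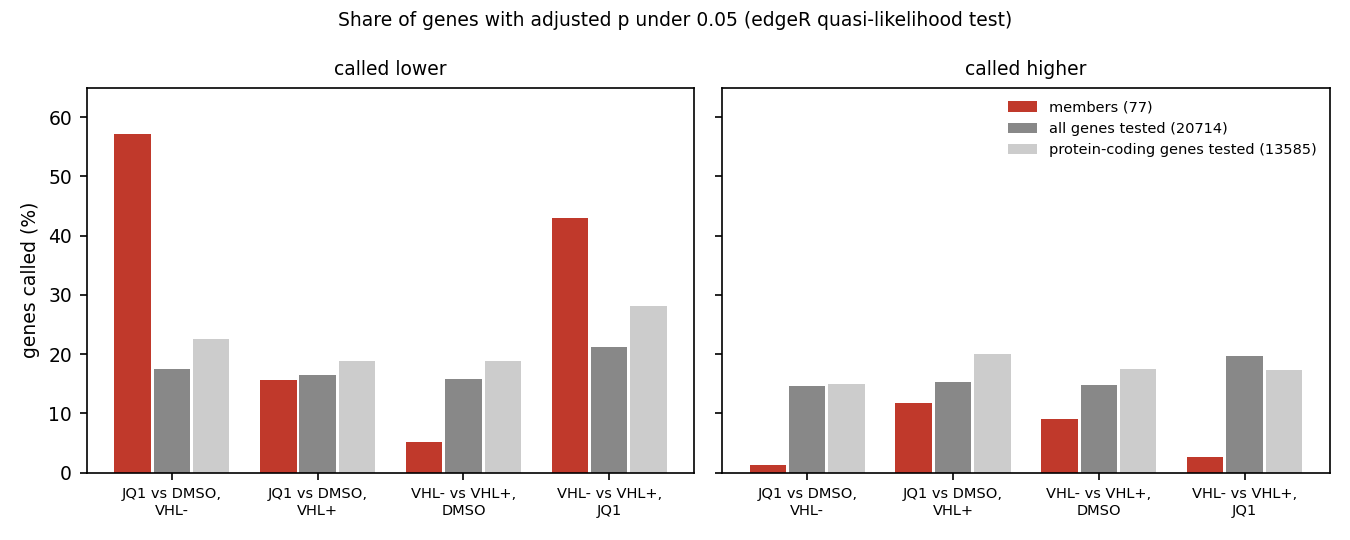
Percent of genes called lower (left) or higher (right) at an adjusted p under 0.05 (vertical axis, bars from 0) among the 77 tested members, all genes tested and protein-coding genes tested, in the 4 comparisons of 2 groups. In VHL-negative cells 57.1% of members fell against 17.5% of all genes; in VHL-positive cells 15.6% fell against 16.5%.

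In VHL-positive cells the same drug moved the members both ways. 12 of 77 fell and 9 rose, that is 15.6% and 11.7% of members, beside 16.5% and 15.3% of all genes tested. The share that fell was thus near the background (18.8% of protein-coding genes fell). Libraries did not overlap for 23 members with JQ1 lower and for 19 with JQ1 higher, beside 24% and 24.2% of all genes, and the median log2 fold change was -0.06, beside -0.03 for all genes (-0.12 to -0.03 for the members with 1 library left out). The large-subunit sums were 1870, 2100 and 1990 CPM under DMSO and 1880, 1710 and 1770 CPM under JQ1, and the small-subunit sums 1100, 1220 and 1170 CPM and then 1110, 1020 and 1050 CPM, so the treatments overlapped in both. With total counts as the only scaling 18 fell and 5 rose, and that scaling moved the median of all genes to -0.14.

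The fall with the smallest p here was that of MRPL15, a large-subunit protein, from 46.0, 61.9 and 50.8 CPM to 18.2, 18.8 and 20.2 CPM, a change of -1.47 ± 0.201 (adjusted p = 5.55e-05). MRPS15 fell from 61.9, 90.0 and 70.6 CPM to 33.7, 38.2 and 37.0 CPM (-1.03 ± 0.195, adjusted p = 0.000839). In both genes the treatments were far apart. MRPL11 was at 39.0, 46.9 and 43.6 CPM under DMSO and at 23.5, 22.4 and 22.3 CPM under JQ1 (-0.93, adjusted p = 0.00142). MRPL19 fell by 0.77 (adjusted p = 0.000525) and MRPL23 by 1.89 (adjusted p = 0.00139) on the log2 scale. By size that of MRPL23, a low member, was the largest fall here. MRPL3 went from 79.9, 91.7 and 83.4 CPM to 60.7, 48.0 and 49.1 CPM, a smaller change than in VHL-negative cells by value, -0.69 ± 0.166 (adjusted p = 0.00485).

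MRPL24, MRPL28 and MRPS18B fell by 0.71, 0.72 and 0.67 on the log2 scale (adjusted p = 0.00429, 0.00615 and 0.00803). With replicate 3 of both JQ1 groups left out, the members called numbered 10 in place of 21. The share of all genes passing dropped too, to 19.2% from 31.8%. These 3 members and MRPL3 were no longer called, with adjusted p of 0.0558, 0.0556, 0.0652 and, for MRPL3, 0.0529.

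Among the rises, MRPS6 repeated its change, from 25.4, 26.6 and 26.2 CPM to 40.3, 39.4 and 37.7 CPM (0.59 ± 0.13, adjusted p = 0.00284). MRPL41, a large-subunit protein without a bacterial counterpart, rose from 39.6, 25.1 and 32.6 CPM to 55.3, 47.9 and 54.6 CPM (0.7 ± 0.162, adjusted p = 0.00378). In VHL-negative cells MRPL41 was at 31.4, 25.9 and 32.8 CPM and then at 43.9, 34.1 and 40.6 CPM, also without overlap, but the change of 0.4 did not pass (adjusted p = 0.0714). MRPL57 rose by 0.65 (adjusted p = 0.00715) and MRPL48 by 0.6 (adjusted p = 0.00804). MRPS24, a low member, went from 0.804, 0.315 and 0.933 CPM to 2.04, 1.58 and 1.61 CPM (1.32 ± 0.342, adjusted p = 0.00757), and 23.2% of its exon length overlaps other genes. MRPS31, MRPL55 and MRPL40 rose by 0.46, 0.46 and 0.43 (adjusted p = 0.0138, 0.0193 and 0.0236).

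The calls of MRPL40 and MRPL55 were lost without VHL-positive DMSO replicate 1 or 2 or JQ1 replicate 1 or 3, and that of MRPS31 without DMSO replicate 1 or JQ1 replicate 3, with adjusted p over all alternatives of up to 0.131, 0.0946 and 0.0911. By origin, 11 of 45 members with a bacterial counterpart fell (24.4%) and 2 rose (4.44%). Of 31 without one, 1 fell (3.23%) and 7 rose (22.6%). Over all genes tested, 16.5% fell and 15.3% rose. This contrast between origins was not tested.

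Set side by side, both JQ1 effects were downward for 43 members. All 12 members that fell in VHL-positive cells, MRPL1, MRPL3, MRPL11, MRPL15, MRPL19, MRPL23, MRPL24, MRPL28, MRPS2, MRPS5, MRPS15 and MRPS18B, also fell in VHL-negative cells. Another 32 were called lower in VHL-negative cells alone, MRPS6 rose in both lines, and 24 were called in neither. Libraries of both treatments were apart, with JQ1 lower in both lines, for 23 members (13.2% of all genes tested gave this pattern), and apart with JQ1 higher in both lines for 3, MRPL41, MRPS24 and MRPS6 (11.4%). MRPL14 and MRPS31 were lower without overlap in VHL-negative cells and higher without overlap in VHL-positive cells, a pattern of 0.826% of all genes. By the test, 0 members were called in opposite directions. MRPL14 was not called in VHL-positive cells (0.18), nor MRPS31 in VHL-negative cells (-0.29). The nearest VHL-negative libraries of MRPL14 were at 103 CPM under JQ1 and 105 CPM under DMSO. For MRPS31 the levels were 14.5, 13.1 and 14.5 CPM and then 12.0, 10.7 and 11.6 CPM in VHL-negative cells, and 11.6, 12.9 and 14.4 CPM and then 18.3, 16.2 and 19.0 CPM in VHL-positive cells.

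**Figure D3:**
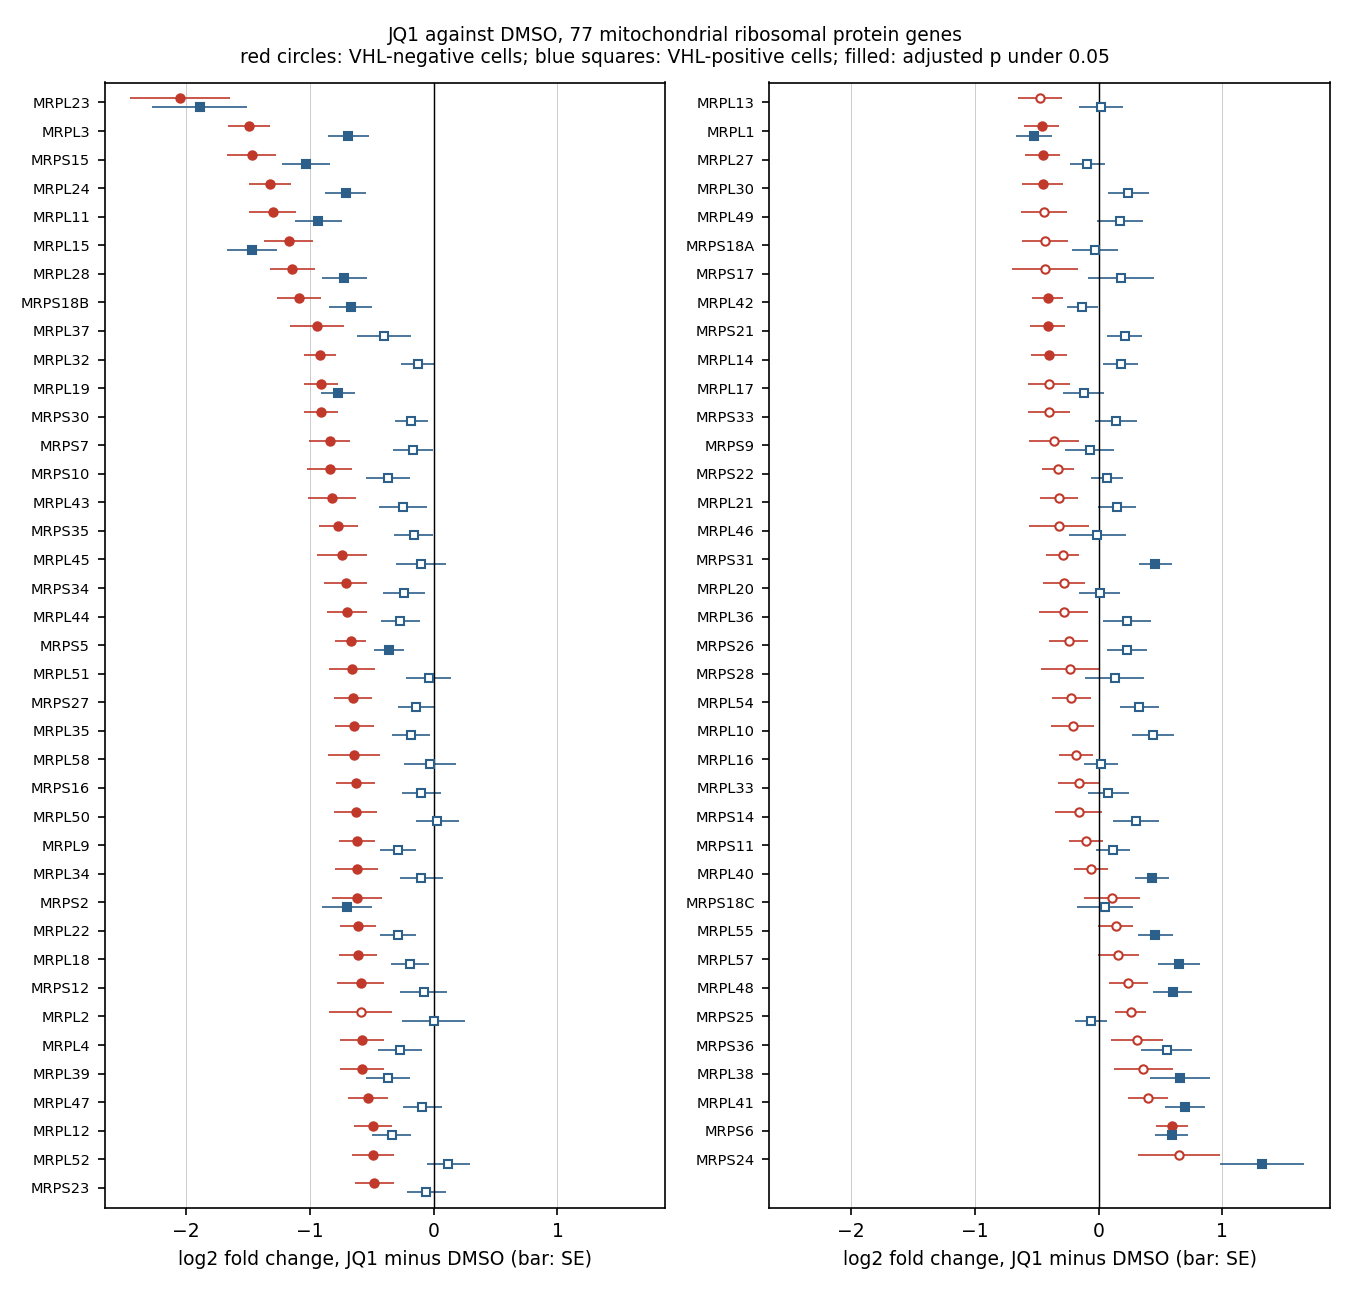
Log2 fold change of JQ1 against DMSO (horizontal axis, bars of 1 SE) for the 77 tested members in VHL-negative (red circles) and VHL-positive cells (blue squares), ordered by the VHL-negative value; filled symbols have an adjusted p under 0.05. Most red symbols lie left of their blue partners, 71 of 77 differences being below 0.

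The difference between both JQ1 effects was tested directly. It was below 0, meaning a lower JQ1 effect in VHL-negative cells, for 71 of 77 members, or 92.2%, beside 49.3% of all genes and 59.8% of protein-coding genes. The median difference was -0.44, beside 0.01 over all genes and -0.12 over protein-coding genes. With 1 library left out it ran from -0.29 (without VHL-negative JQ1 replicate 2) to -0.69 (without replicate 1). After adjustment only MRPL32 passed, 1.3% of members, beside 1.21% of all genes called in either direction and 0.71% called lower. Its VHL-positive levels were 48.8, 54.4 and 50.2 CPM under DMSO and 51.9, 42.4 and 45.5 CPM under JQ1, which overlapped, and its difference was -0.79 ± 0.184 (adjusted p = 0.0497). At an unadjusted p under 0.05 there were 24 members, all of them below 0, while 12.0% of all genes were below 0 at that level. Next in order stood MRPS31 at -0.75 (adjusted p = 0.0599), MRPS30 at -0.73 (adjusted p = 0.0714) and MRPL3 at -0.8 (adjusted p = 0.0878).

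The call of MRPL32 was lost in 14 of 23 alternatives, with adjusted p reaching 0.29, among them those without VHL-negative DMSO replicate 1 or 3, VHL-negative JQ1 replicate 2 or 3, VHL-positive DMSO replicate 1 or 3 or any 1 VHL-positive JQ1 library. Without VHL-negative JQ1 replicate 1, the library highest in most members, 39 members passed, all below 0, in a fit where 16.2% of all genes passed. DESeq2 passed 4 members, in a fit where 5.74% of all genes passed, and limma-voom passed 0.

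The next comparison was of cells with and without VHL under DMSO. Here 7 of 77 members were higher in VHL-negative cells and 4 were lower, 9.09% and 5.19%, both below the 14.8% and 15.9% of all genes. MRPL14 (chr6:44113454-44127457) was the clearest, at 105, 106 and 134 CPM in VHL-negative and 66.5, 66.4 and 64.1 CPM in VHL-positive cells, a difference of 0.81 ± 0.143 (adjusted p = 0.000389). No VHL-negative library came near the VHL-positive ones. MRPS6 was higher by 0.51 ± 0.13 (adjusted p = 0.00659), and its neighbour SLC5A3 by 0.94 (adjusted p = 2.28e-05). MRPS26, MRPL17, MRPL52, MRPL54 and MRPL40 were higher by 0.51, 0.52, 0.51, 0.49 and 0.41 (adjusted p = 0.022, 0.0278, 0.0321, 0.0274 and 0.0313).

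MRPS36 (chr5:69217760-69230129), which has 5 pseudogenes named for it, was lower in VHL-negative cells, at 7.21, 5.53 and 4.96 CPM beside 7.23, 11.4 and 10.1 CPM (-0.7 ± 0.207, adjusted p = 0.0171). The nearest libraries of both groups, at 7.21 and 7.23 CPM, almost met. MRPS30 was also lower, with 73.9, 75.3 and 75.7 CPM in VHL-positive cells (-0.45 ± 0.136, adjusted p = 0.0203), as were MRPL42 by 0.4 (adjusted p = 0.0256) and MRPL33 by 0.45 (adjusted p = 0.0457).

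The DMSO calls were thin. Fits on fewer libraries can call fewer genes of any kind, and their all-gene shares are not given here. Leaving out 1 library gave 2 to 13 calls, with 2 without VHL-positive DMSO replicate 3, 4 without VHL-negative DMSO replicate 3, 6 without replicate 1 of either DMSO group and 7 without VHL-negative DMSO replicate 2 or VHL-positive JQ1 replicate 3. With replicate 3 of both JQ1 groups left out 3 passed, and with replicate 1 of both DMSO groups left out 7. MRPL14 alone passed in every alternative run; MRPS6 missed only with replicate 1 of both DMSO groups left out (adjusted p = 0.0714). For the other 9 the highest adjusted p over the alternatives ran from 0.0707 for MRPS36 to 0.207 for MRPL33. With total counts as the only scaling 8 members were higher and 1 lower.

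Under JQ1 the lines stood further apart. 33 of 77 members were lower in VHL-negative cells and 2 were higher, 42.9% and 2.6%, beside 21.2% and 19.7% of all genes and, for lower calls, 28.1% of protein-coding genes. The median difference was -0.37, beside 0.03 for all genes. It was -0.2 without VHL-negative JQ1 replicate 2, -0.61 without replicate 1, and -0.22 with total counts as the only scaling, where that of all genes was 0.19. MRPS30 (chr5:44808925-44820428) led, at 35.7, 23.9 and 28.1 CPM in VHL-negative and 70.4, 61.8 and 66.1 CPM in VHL-positive cells. The groups were wide apart, with a difference of -1.17 ± 0.139 (adjusted p = 7.32e-06), the 1 difference here of at least 2-fold, at 2.26-fold.

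MRPS27, a small-subunit protein, was at 63.1, 39.4 and 50.0 CPM beside 96.0, 91.0 and 91.6 CPM (-0.87 ± 0.152, adjusted p = 0.000321). MRPS36 was at 9.26, 5.54 and 6.91 CPM beside 14.4, 13.5 and 13.9 CPM (-0.94 ± 0.207, adjusted p = 0.00201). In both genes the lines did not overlap. MRPL35, MRPS35, MRPL47, MRPS21, MRPL42 and MRPS31 were lower by 0.79, 0.78, 0.76, 0.73, 0.67 and 0.64 on the log2 scale (adjusted p = 0.000881, 0.00114, 0.00136, 0.000767, 0.000615 and 0.00121). MRPS34 was lower by 0.67 (adjusted p = 0.006) and MRPL45 by 0.61 (adjusted p = 0.0274).

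MRPS6 at 0.52 ± 0.129 (adjusted p = 0.00463) and MRPS25, another small-subunit protein, at 0.36 ± 0.127 (adjusted p = 0.0346) were the 2 higher members. Of the large subunit 20 of 50 were lower, and of the small subunit 12 of 26 were lower and both higher members belonged to it. Of the 44 members with under 5% exon overlap 20 were lower, 45.5%. Of the 24 of these with no named pseudogene 6 were lower, a share near the 21.2% of all genes.

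Left-out libraries moved the count under JQ1 from 35 down to 22 without VHL-negative JQ1 replicate 2, 21 without replicate 3 and 23 without VHL-positive JQ1 replicate 1, and up to 52 without VHL-negative JQ1 replicate 1. With replicate 3 of both JQ1 groups left out 13 passed, and MRPS34 (adjusted p = 0.0695) and MRPS6 (adjusted p = 0.0635) did not. The all-gene shares of these fits are not given here either. The calls of MRPL45 and MRPS25 were lost without any 1 of VHL-negative JQ1 replicates 2 and 3 and the 3 VHL-positive JQ1 libraries, with adjusted p over all alternatives reaching 0.156 and 0.283.

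**Figure D4:**
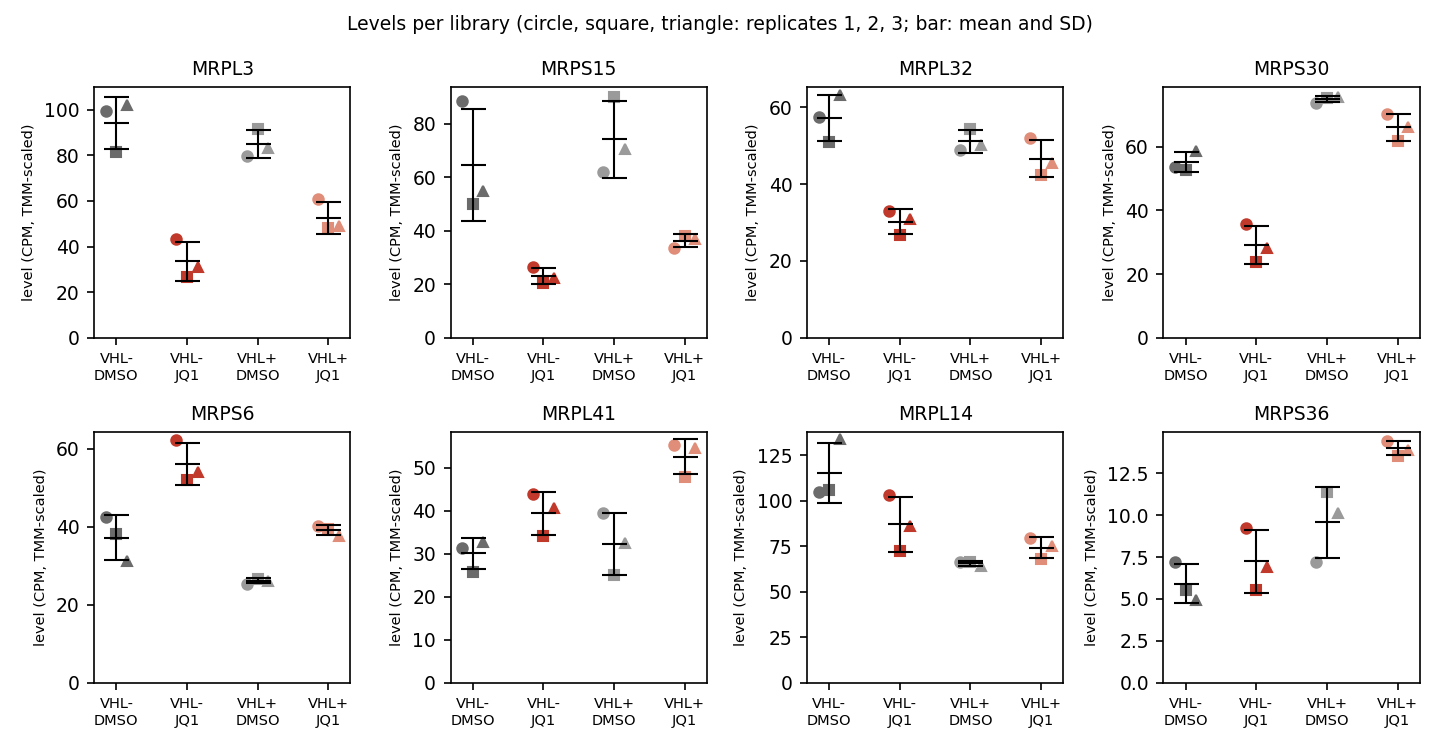
CPM (TMM-scaled) of 8 members in each of the 12 libraries (points) with the mean of each group (lines). MRPL3 and MRPS15 are lower with JQ1 in both lines, MRPL32 and MRPS30 in VHL-negative cells, MRPS6 and MRPL41 are higher with JQ1, MRPL14 is highest in VHL-negative DMSO cells and MRPS36 is lowest in VHL-negative cells.

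The MRPS18 genes are paralogues whose proteins sit at different places of the ribosome. MRPS18B, of the small subunit, fell in VHL-negative cells from 66.6, 52.8 and 56.4 CPM to 36.2, 20.6 and 25.5 CPM (-1.09 ± 0.177, adjusted p = 0.000224). MRPS18A, of the large subunit, was at 17.7, 11.7 and 13.2 CPM and then at 12.5, 8.64 and 10.2 CPM, which overlapped (-0.43, adjusted p = 0.0863). MRPS18C, closest to the bacterial protein, was at 2.93, 4.2 and 4.38 CPM and then at 3.93, 3.4 and 5.09 CPM (0.11, adjusted p = 0.731), and passed in no comparison. Of their exon lengths 47.0% of MRPS18A and 40.2% of MRPS18C overlap other genes. Differences between the 3 paralogues were not tested.

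The 7 members with an E-box, MRPL22, MRPL36, MRPL37, MRPL45, MRPL49, MRPS18C and MRPS36, had a median log2 fold change with JQ1 of -0.44 in VHL-negative cells, beside -0.48 for the 62 tested members without it, and 3 of the 7 fell beside 38 of the 62. For the ETS pattern 6 of 10 tested members fell, MRPL3 among them, beside 35 of 59 without it, and for the YY1 pattern 8 of 13 beside 33 of 56. Members with the NRF1 pattern had a median of -0.4 (3 of 8 fell) beside -0.53 (38 of 61). In VHL-positive cells the medians were 0.05 with and -0.08 without the E-box, where none of the 7 and 10 of the 62 fell, and 0.16 with and -0.09 without the NRF1 pattern, where none of the 8 and 10 of the 61 fell. Of all genes tested, 17.5% fell in VHL-negative and 16.5% in VHL-positive cells. Differences between members with and without a pattern were not tested.

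Some members share a start region with a gene on the other strand. A divergent protein-coding gene started within 1000 bases before, or up to 500 bases inside, 25 members. Of 22 pairs in which the partner is no member and was tested, 13 members and 6 partners fell with JQ1 in VHL-negative cells. Another 2 partners rose, and the background of falls was 17.5% of all genes and 22.6% of protein-coding genes. In 1 pair both fell: MRPL43 with TWNK, the helicase of mitochondrial DNA (-0.56, adjusted p = 0.00441). SEMA4G and TWNK together overlap 36.9% of MRPL43's exon length on the other strand, so reads of this pair may be shared. TWNK also fell in VHL-positive cells (-0.81, adjusted p = 0.000291), where MRPL43 was not called. Under JQ1, 8 members and 3 partners of the 22 pairs were lower in VHL-negative cells, and 3 partners were higher. The background of lower calls was 21.2% of all genes and 28.1% of protein-coding genes. In 3 pairs member and partner were lower together, among them MRPL36 with NDUFS6 (-1.23, adjusted p = 0.000101) and MRPL47 with NDUFB5 (-1.27, adjusted p = 5.89e-05). NDUFS6 and NDUFB5 are complex I subunit genes. The starts of MRPL46 and MRPS11, members of opposite subunits on chromosome 15, are 34 bases apart; MRPL46 was lower in VHL-negative cells under JQ1 (-0.67, adjusted p = 0.0354) and MRPS11 was not called.

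Other genes of mitochondrial translation were read from lists, whose shares of falls stand beside 17.5% of all genes in VHL-negative and 16.5% in VHL-positive cells. Among 5 mitoribosomal proteins with other symbols, GADD45GIP1 (-0.87, adjusted p = 0.000641) and AURKAIP1 (-0.5, adjusted p = 0.0173) fell with JQ1 in VHL-negative cells, and in VHL-positive cells GADD45GIP1 fell (-0.48, adjusted p = 0.03). DAP3, a GTP-binding protein of the small subunit, was lower in VHL-negative cells, at a mean of 79.0 beside 133 CPM under DMSO (-0.75, adjusted p = 0.00145) and 72.1 beside 151 CPM under JQ1 (-1.06, adjusted p = 6.04e-05).

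Of 26 tested genes for ribosome assembly and rRNA modification 11 fell with JQ1 in VHL-negative cells (42.3%), among them the rRNA methyltransferase MRM1 (-0.98, adjusted p = 8.81e-05), and in VHL-positive cells 2 fell (7.69%) and 2 rose. Of 15 translation factors 7 fell (46.7%) and 1 rose in VHL-negative cells, and 2 fell (13.3%) and 2 rose in VHL-positive cells. TACO1, an activator of cytochrome oxidase synthesis, fell in both lines, from 26.6 to 10.4 CPM (-1.35, adjusted p = 7.59e-06) and from 20.6 to 11.4 CPM (-0.86, adjusted p = 0.000445), whereas MTRES1, which helps rescue stalled ribosomes, rose in both, by 0.75 (adjusted p = 0.00124) and 0.83 (adjusted p = 0.000706). TUFM, the elongation factor that brings tRNAs, was lower in VHL-negative cells under JQ1, at 151 beside 291 CPM (-0.95, adjusted p = 0.000113).

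Of 17 mitochondrial aminoacyl-tRNA synthetases 7 fell in VHL-negative (41.2%) and 3 in VHL-positive cells (17.6%, near the background). For 15 genes of mitochondrial transcription and RNA handling it was 9 in VHL-negative cells (60.0%), and 4 that fell (26.7%) with 1 that rose in VHL-positive cells. PRORP, the nuclease that trims tRNAs out of mitochondrial transcripts, fell in both (-1.54 with adjusted p = 0.000116 in VHL-negative cells), and POLRMT, the mitochondrial RNA polymerase, fell by 0.7 in VHL-negative cells (adjusted p = 0.000671).

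Among 12 nuclear regulators of mitochondrial biogenesis, MYC averaged 342 CPM under DMSO and 160 CPM under JQ1 in VHL-negative cells (-1.1, adjusted p = 0.000869), and 171 and 161 CPM in VHL-positive cells (-0.08, adjusted p = 0.795). The difference between these MYC effects, -1.01, did not pass (adjusted p = 0.0852). The coactivator PPARGC1B fell in both lines (-1.21 with adjusted p = 0.000144, and -1.47 with adjusted p = 2.67e-05). Its relative PPARGC1A was at 0.826 CPM in VHL-negative and 41.2 CPM in VHL-positive cells under DMSO (-5.65, adjusted p = 5.11e-11). In all, 5 of the 12 fell (41.7%) and 1, NRF1, rose in VHL-negative cells (0.48, adjusted p = 0.0108), and 4 fell (33.3%) and 1 rose in VHL-positive cells. The relation of these regulators to the members was not tested.

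The mRNAs that the ribosome translates and its rRNAs are made from mitochondrial DNA, and their levels were widely spread. The 13 mRNAs summed to 58700, 18500 and 10100 CPM under DMSO and 26300, 26500 and 24300 CPM under JQ1 in VHL-negative cells. The spread of the DMSO libraries was wider than any difference between groups. By edgeR 0 of the 13 passed with JQ1 in VHL-negative cells, with 0 at an unadjusted p under 0.05 and 0 by DESeq2 or limma-voom, and their log2 fold changes ran from -0.75 to 0.09. In VHL-positive cells they ran from -0.56 to 0.21, and again 0 passed by any of the 3 tools or unadjusted. Of the 2 rRNAs, 0 passed by edgeR with JQ1 in VHL-positive cells, where 1 was under 0.05 unadjusted and 1 passed by DESeq2 and by limma-voom. Ribosomal RNA was depleted before sequencing, so levels of the mitochondrial rRNAs depend on that step.

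Gene sets of related function were read in the same fit. Their shares stand beside 17.5% of all genes and 22.6% of protein-coding genes that fell with JQ1 in VHL-negative cells. In VHL-positive cells 16.5% of all genes fell and 15.3% rose. Of 82 tested cytosolic ribosomal protein genes 18 fell in VHL-negative cells (22.0%, median log2 fold change -0.37), beside 57.1% and -0.48 for the mitochondrial ones. In VHL-positive cells 3 fell (3.66%) and 7 rose (8.54%), with a median of 0.24. Of 80 tested nuclear genes for oxidative phosphorylation subunits 18 fell and 1 rose in VHL-negative cells (22.5% fell, median -0.3). In VHL-positive cells 4 fell (5.0%) and 6 rose (7.5%), with a median of 0.18. Under JQ1 48 of these 80 were lower in VHL-negative cells, 60.0%, beside 42.9% of the mitochondrial ribosomal members. Of the 82 cytosolic ribosomal protein genes 31 were lower there, 37.8%, with a median of -0.41 beside -0.37 for the members. These shares stand beside 21.2% of all genes and 28.1% of protein-coding genes. The median difference between both JQ1 effects was -0.56 for the cytosolic and -0.47 for the oxidative phosphorylation genes, beside -0.44 for the members. Differences between the sets were not tested.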

How the data were processed

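The deposited count table holds raw counts per Ensembl gene for 12 libraries of RCC4 cells, per the file headers. Build GRCh38 and the tools featureCounts, Subread 2.0.3, STAR 2.7.8 and DESeq2 1.30.1 are listed, in no order, in the submitters' processing notes. The strand setting and the annotation release are not given in the sources used here. For each line the authors also deposited a comparison of both treatments, with log2 fold changes and errors on that log2 scale. The statistic the authors deposited is a score that divides each change by its error. The p-value and its adjusted form were deposited in DESeq2's layout. The deposited mean has a unit of its own (other): size-factor-scaled counts.

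Members, gene lists, the naming rule and the alternatives were chosen with earlier results of these data known. Symbols came from the deposited tables, and biotypes, positions and exon lengths from GENCODE release 29. Counts were fitted in R 4.3.3 with edgeR 4.0.16 (TMM, filter on low counts by group, quasi-likelihood, 1 mean per group over all 12 libraries), which kept 20714 genes holding 99.87% of counts, and was tested on simulated data. P-values were adjusted by Benjamini-Hochberg over all genes tested, with a threshold of 0.05; SE is of the log2 fold change. CPM levels use the same TMM-scaled sizes.

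Named members were the 3 MRPS18 paralogues, MRPS30, MRPS36, MRPL12, MRPL45 and MRPL58, the 3 highest and 3 lowest per kilobase, and up to 8 called members with the smallest p in each direction of each comparison; others were chosen after their values were seen. From each pathway list up to 4 called genes with the smallest p qualified, and those described are a choice among them or made after their values were seen. Alternatives were other scalings and filters, DESeq2 1.42.0, limma-voom (limma 3.58.1), only the groups compared, a replicate block, gene subsets, left-out libraries and, added after seeing the data, a replicate block on the JQ1 groups. The correlation of deviations between same-numbered libraries was above 0.1 in every pair only between the lines under JQ1 (0.481, 0.355 and 0.155, from the data, since the labels do not describe the numbers). Between JQ1 and DMSO it was 0.093 to 0.388 in VHL-negative and 0.014 to 0.201 in VHL-positive cells. Between the lines under JQ1, fits of those 2 groups alone called 45 members with the block and 30 without, and fits of all 12 called 37 with it and 35 without. Total counts per library, 15452949 to 32502310, limit the precision of low members. Figures were drawn with Python 3.11.15 and matplotlib 3.10.9.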

Additional observations from a re-analysis of the deposited data

Results flagged for a closer look

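MRPL32, a large-subunit member, differed between the lines in its response to JQ1. The difference of its log2 fold changes, VHL-negative minus VHL-positive, was -0.79 ± 0.184 (SE, adjusted p = 0.0497, edgeR's quasi-likelihood test of the interaction over all genes). All 3 JQ1 libraries were below all 3 DMSO libraries in VHL-negative cells, while in VHL-positive cells the treatments overlapped. The call was lost in 14 of 23 alternatives, with values from -0.88 to -0.65 and adjusted p from 0.00498 to 0.29, and without VHL-negative DMSO replicate 1 or 3, VHL-negative JQ1 replicate 2 or 3, VHL-positive DMSO replicate 1 or 3 or any 1 VHL-positive JQ1 replicate it was not called.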

How the results depend on the processing

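Of 1428 values of 59 named changes under alternatives, 1282 kept direction and side of the threshold, 146 lost the call and 0 reversed, and 32 changes held in every alternative run. Counts of members called moved by over 1.5 times as follows. With replicate 3 of both JQ1 groups left out they were 20 (JQ1 in VHL-negative cells, 45 in the reported fit), 10 (JQ1 in VHL-positive cells, 21), 3 (lines under DMSO, 11), 13 (lines under JQ1, 35) and 0 (difference between JQ1 effects, 1). Leaving out 1 library gave 28 to 60, 15 to 24, 2 to 13, 21 to 52 and 0 to 39 in that order, with 60, 13, 52 and 39 all without VHL-negative JQ1 replicate 1. Under DMSO 7 passed with no filter on low counts and 7 with replicate 1 of both DMSO groups left out. For the difference, 4 passed with DESeq2, 3 with no filter, 2 without mitochondrial-genome and structural RNA genes, and 0 with limma-voom, total counts alone, the replicate block or replicate 1 of both DMSO groups left out. With the replicate block on all libraries the counts were 48, 20, 11, 37 and 0, and of the named changes only the difference of MRPL32 lost its call (-0.78, adjusted p = 0.0549). Total counts alone moved the median of all genes to 0.19 between the lines under JQ1 and to 0.11 for the difference. The cause of these shifts was not tested. With replicate 3 of both JQ1 groups left out, calls over all genes dropped as well. For JQ1 against DMSO they were 18.3% in VHL-negative and 19.2% in VHL-positive cells, beside 32.1% and 31.8% in the reported fit. Low counts limit MRPL23, MRPS24 and MRPS18C, and MRPL53 could not be fitted.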
